A study of Mus musculus with 30 samples.

Results

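The chemokine system of mouse liver was examined as a set of genes named by symbol: every gene whose symbol begins with Ccl, Cxcl, Ccr, Cxcr, Cx3cl, Cx3cr, Xcl, Xcr or Ackr followed by a digit. The rule found 52 genes among 17097 with an array measurement, 34 ligands and 18 receptors. Each gene was represented by whichever of its probe sets had the highest 30-mouse mean. The members have 78 probe sets in all, 35 members having 1 and 17 having several.

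Non-tumoral liver was profiled on Affymetrix HT MG-430 PM arrays, with 1 array for each of 30 mice. Of the 25 mice fed a high-fat diet lacking choline (CD-HFD), which causes chronic liver damage, 6 received aspirin and clopidogrel (antiplatelet drugs), 10 received sulindac (a cyclooxygenase inhibitor), 4 received vehicle and had hepatocellular carcinoma (HCC) with fibrosis, and 5 received vehicle and had no HCC. The remaining 5 mice were healthy, ate chow and are labelled as vehicle-treated. The drugs were given as prophylaxis. Mice are named by the short group codes AspClo, Sulin, Veh_high (with HCC), Veh_low (without HCC) and Hlth (chow), followed by the animal number. Diet and chronic damage separate all 4 other groups from the chow mice and cannot be told apart. Strain, sex, age, batch and collection time are not given in the sources used here.

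Chemokines are small secreted proteins that bind receptors on leukocytes and direct their movement. Inflammatory members are induced by cytokines and microbial products through interferon-activated transcription factors and NF-kappa B, whereas homeostatic members position cells in resting tissue. In liver, Kupffer cells, stellate cells, sinusoidal endothelium and hepatocytes all make chemokines, and the receptors sit mainly on the leukocytes that arrive. Atypical receptors, named Ackr, bind chemokines without the usual G protein signalling and remove or present them.

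The promoters of 3 genes are printed because their genes recur below: Cxcl10 is the member with the largest departure in a single chow mouse, and Cxcl1 and Cxcl2 are neighbouring genes on chromosome 5 whose products share a receptor. The sequences are RefSeq windows of build GRCm38.p6, each 300 bases long, with 250 bases before and 50 from the start site onward, written 5′ to 3′ on the gene's own strand. They lie at chr5:92348840-92349139 (minus strand) for Cxcl10, chr5:90890995-90891294 (plus strand) for Cxcl1 and chr5:90903649-90903948 (plus strand) for Cxcl2. Capitals mark matches to an interferon response element (GAAA, any 2 bases, then GAAA) or to the kappa B motif, searched on both strands.
Cxcl10: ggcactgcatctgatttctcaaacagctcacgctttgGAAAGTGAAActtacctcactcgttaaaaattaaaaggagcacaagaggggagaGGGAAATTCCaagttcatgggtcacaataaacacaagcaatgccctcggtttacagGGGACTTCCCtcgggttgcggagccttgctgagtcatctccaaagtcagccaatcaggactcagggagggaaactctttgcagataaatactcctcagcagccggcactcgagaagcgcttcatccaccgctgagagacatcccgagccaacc
Cxcl1: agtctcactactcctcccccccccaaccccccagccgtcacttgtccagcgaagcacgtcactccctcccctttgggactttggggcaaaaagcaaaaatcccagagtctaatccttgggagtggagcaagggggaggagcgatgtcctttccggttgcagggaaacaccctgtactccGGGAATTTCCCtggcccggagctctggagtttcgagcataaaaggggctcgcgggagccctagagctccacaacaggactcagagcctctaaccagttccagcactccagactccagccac
Cxcl2: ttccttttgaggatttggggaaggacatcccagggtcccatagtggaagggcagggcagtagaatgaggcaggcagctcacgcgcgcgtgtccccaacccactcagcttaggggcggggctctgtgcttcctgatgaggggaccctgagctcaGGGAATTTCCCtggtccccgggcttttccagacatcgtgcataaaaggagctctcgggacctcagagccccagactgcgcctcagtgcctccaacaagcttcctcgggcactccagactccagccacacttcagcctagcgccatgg
The Cxcl10 window held GAAAGTGAAA at -213 to -204 from the start site and kappa B matches at -159 to -150 and at -103 to -94. In Cxcl1 and in Cxcl2 the capitals are a pair of overlapping kappa B matches, spanning -71 to -61 and -97 to -87. A promoter was available for 40 of the 52 members, with 44 windows. The kappa B motif was found in 9 of these 44 windows (20.5%) and in 4.51% of all 32851 windows, and the interferon response element in 3 of 44 (6.82%) and in 3.44% of all. The kappa B windows belonged to Ccl9, Ccl20, Ccl27a, Cxcl1, Cxcl2, Cxcl10, Ackr2, Ccr3 and Ccr6, and the interferon element windows to Ccl19, Cxcl10 and Cxcl14. A match describes letters in the window and was not tested as a binding site.

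The values are deposited normalised intensities on a log2 scale. Array medians were alike, from 24.1 to 24.6 on the linear scale, and correlations between pairs of arrays ranged from 0.974 to 0.996. All 6 hepatocyte markers were measured, with summed intensities between 48383 and 54202. An earlier analysis of the same data had found 4 mice, Veh_low_794, Veh_low_1819, Hlth_1798 and Hlth_1807, nearer the opposite group over the brighter genes, and both chow mice among them stand apart for chemokines too. The 26 mice left without them were also compared.

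Most chemokine genes were read near the lower end of the array. The median gene had a mean of 4.90, and 15 of the 52 members lay at or above it, of which 14 were ligands and the other was the receptor Ccr2. A further 24 members, 12 ligands and 12 receptors, did not exceed 4.90 in any mouse. These 24 stayed between 4.06 and 4.87, and none moved by more than 0.54 over the 30 mice. The ligands had a median mean level of 4.77 and the receptors one of 4.45. Probe sets differ in how brightly they report a transcript, so a position in this order is not an abundance, and a change in a dim member can be compressed by background. Since the tissue is bulk liver, fewer cells of one type and less RNA per cell cannot be told apart at any of these values.

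**Figure D1:**
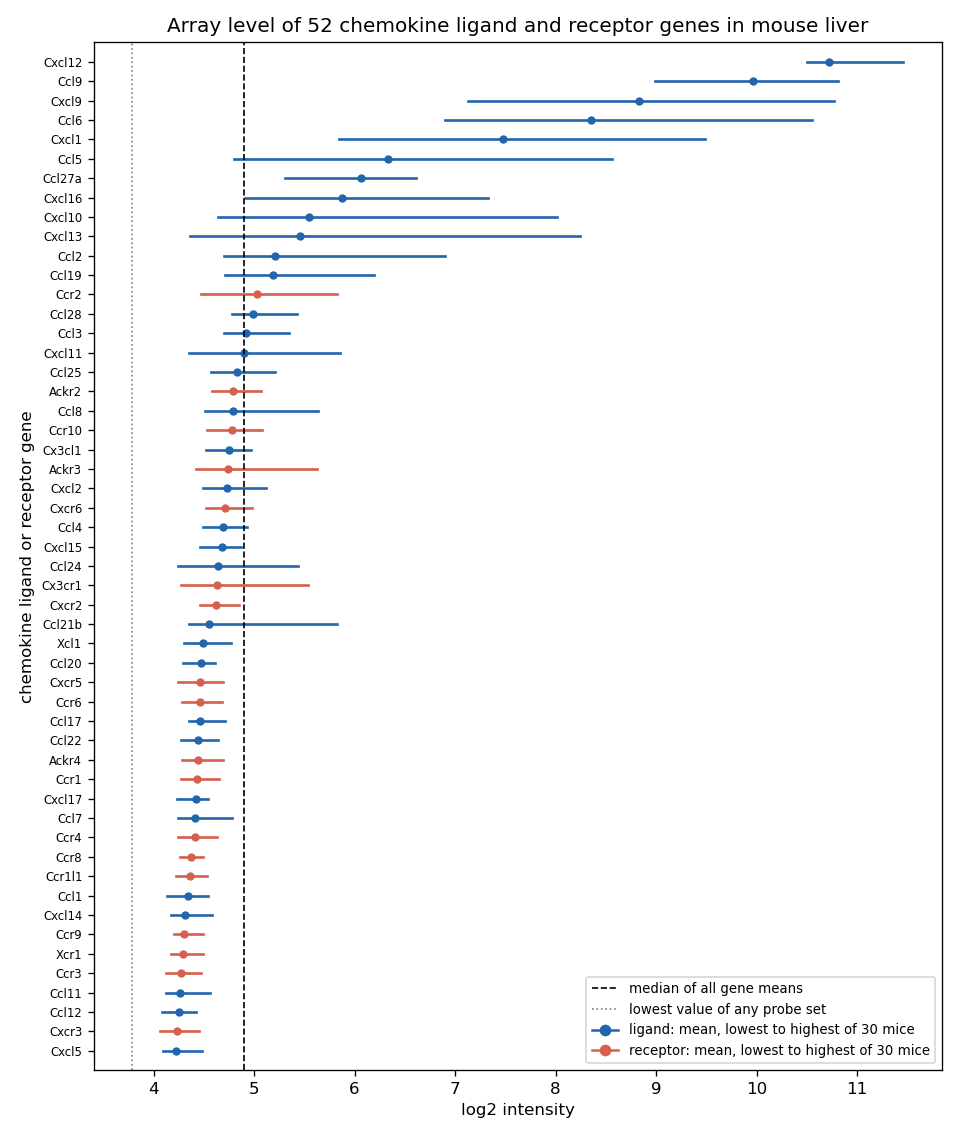
Log2 intensity of the 52 chemokine genes, with the mean (point) and the lowest to highest of 30 mice (line) for ligands in blue and receptors in red, ordered by mean. The dashed line is the median gene at 4.90 and the dotted line the lowest value of any probe set, 3.79; 15 members have their mean at or above the dashed line.

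Several of the brighter ligands varied widely between mice of the same group. The pooled SD within groups was 0.98 for Cxcl13, 0.91 for Ccl6, 0.83 for Cxcl1, 0.82 for Ccl5, 0.77 for Cxcl9, 0.72 for Cxcl10, 0.55 for Cxcl16, and 0.42 for both Ccl9 and Ccl2. Other bright ligands were steadier, with an SD of 0.18 for Cxcl12, the brightest member, 0.14 for Ccl28, 0.25 for Ccl27a and 0.29 for Ccl19. These 9 members (17.3% of 52) lay in the top 5% of all genes by this SD, at or above 0.40. The median SD was 0.125 for members and 0.121 for all genes. Set against genes of like level in 20 bins, 12 members lay above the 95th percentile of their bin. They were Ccl5, Ccl6, Ccl7, Ccl21b, Ccl24, Cxcl1, Cxcl5, Cxcl9, Cxcl10, Cxcl13, Cxcl16 and the receptor Cx3cr1. Ccl9 and Ccl2 were not among them. Over the 30 mice, 18 members (34.6%) spanned at least 1 log2 unit, 15 ligands and 3 receptors, against 20.2% of all genes. The members that spanned at least 2 units numbered 8, and 4.36% of all genes did so.

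**Figure D2:**
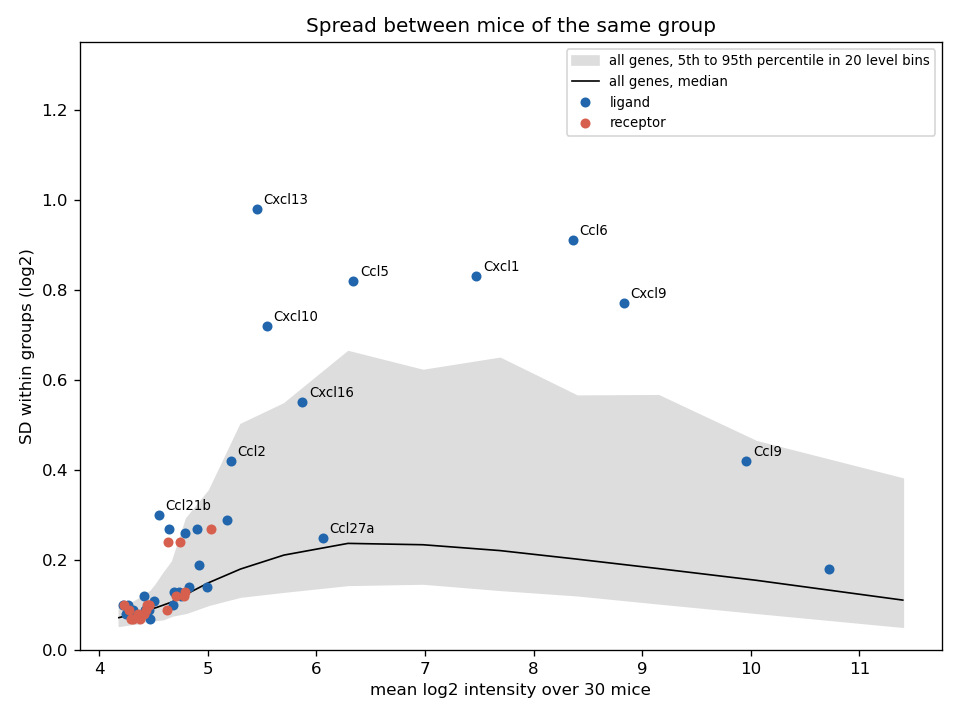
Pooled SD within the 5 groups (log2, vertical axis) against mean log2 intensity over 30 mice (horizontal axis) for ligands (blue) and receptors (red). The grey band is the 5th to 95th percentile of all genes in 20 level bins and the line their median; Cxcl13 (0.98) and Ccl6 (0.91) are the highest members.

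No chemokine gene passed the test in any of the 9 comparisons. By limma with Benjamini-Hochberg adjustment over 17097 genes, 0 of 52 members had an adjusted p under 0.05, and the smallest was 0.103. Of 468 pairs of a member and a comparison, 29 (6.2%) had an unadjusted p under 0.05, and in 0 pairs did the groups' ranges separate. Over all genes, ranges separated for 2.01% in aspirin and clopidogrel, 1.32% in sulindac, 2.66% in vehicle with HCC, 0.790% in vehicle without HCC and 0.117% in all vehicle mice against chow. For aspirin and clopidogrel against vehicle the share was 0.392%, for sulindac against vehicle 0.0702%, for aspirin and clopidogrel against sulindac 0.328%, and for vehicle with HCC against vehicle without HCC 3.0%. The comparisons with chow share the chow mice, and those with vehicle share the vehicle mice, so their values are set side by side and are not independent.

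Against chow, the share of all genes called was 2.77% for aspirin and clopidogrel, 2.98% for sulindac, 0.0994% for vehicle with HCC, 0% for vehicle without HCC and 0.0117% for all vehicle mice. With an unadjusted p under 0.05, these comparisons had 3, 5, 3, 3 and 3 members, where 14.8%, 14.8%, 9.26%, 5.32% and 6.73% of all genes had one. The median member difference was -0.004 for aspirin and clopidogrel, 0.018 for sulindac, 0.011 for vehicle with HCC, -0.001 for vehicle without HCC and 0.003 for all vehicle. Over all genes the medians were 0.003, 0.006, -0.001, 0.007 and 0.003, in the same order.

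Within CD-HFD mice, 1.96% of genes were called for aspirin and clopidogrel against vehicle, 0.199% for sulindac against vehicle, 0.877% for aspirin and clopidogrel against sulindac, and 0.0877% for vehicle with HCC against vehicle without HCC. Members with an unadjusted p under 0.05 numbered 4, 2, 5 and 1, and 14.6%, 10.4%, 10.8% and 8.87% of all genes had one. In simulated arrays with the spread of these data, the same fit recovered 64.3% of genes changed by 0.5 log2, 94.7% of those changed by 1 and 99.1% of those changed by 2 for vehicle against healthy. The genes changed in the simulation were no dimmer than the median gene, a level that 15 of the 52 members reach on average. The shares thus do not describe the dimmer members, and the variable ligands above have a wider spread. Mice that stand apart over many genes were not simulated.

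Cxcl9, a ligand of Cxcr3 that attracts activated T and NK cells and is induced by interferon-gamma, had the widest separation of group means, 1.59. In aspirin and clopidogrel mice it ranged from 7.13 to 9.67 with a median of 9.25, and in sulindac mice from 8.49 to 10.40 with a median of 8.87. Vehicle mice with HCC had 8.51, 9.41, 9.13 and 10.77, vehicle mice without HCC 8.72, 9.83, 9.32, 7.59 and 7.79, and chow mice 8.69, 7.58, 7.78, 7.45 and 7.83. Thus 5 of 6 aspirin and clopidogrel mice, 7 of 10 sulindac mice, 3 of 4 vehicle mice with HCC and 3 of 5 without HCC lay above every chow mouse, but the ranges overlapped in each comparison.

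Cxcl9 averaged 9.45 ± 0.95 in vehicle mice with HCC (SD, n = 4) and 7.87 ± 0.49 in chow mice (SD, n = 5), a difference of 1.59 (SE 0.495, 95% interval 0.57 to 2.60, limma adjusted p = 0.222). Sulindac mice averaged 9.09 ± 0.60 (n = 10), 1.22 above the chow mice (SE 0.405, interval 0.39 to 2.05, limma adjusted p = 0.103). Aspirin and clopidogrel mice averaged 8.93 ± 0.92 (n = 6), 1.06 above chow (SE 0.447, interval 0.14 to 1.98, limma adjusted p = 0.241). These intervals lie above 0, while none of the adjusted p-values passes the threshold. Between drug and vehicle the values were close: the difference from vehicle (9.01 ± 0.99, n = 9) was -0.08 for aspirin and clopidogrel (interval -0.88 to 0.72) and 0.08 for sulindac (interval -0.61 to 0.78). Differences of up to about these bounds are not distinguished by the data. In the 26 mice the differences from vehicle were -0.46 for aspirin and clopidogrel and -0.29 for sulindac.

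Cxcl10, another interferon-induced ligand of Cxcr3, had group means within 0.27 of each other. It averaged 5.52 ± 0.29 in aspirin and clopidogrel mice, 5.45 ± 0.37 in sulindac mice, 5.72 ± 0.50 in vehicle mice with HCC, 5.62 ± 0.75 in vehicle mice without HCC and 5.53 ± 1.43 in chow mice. The chow values were 8.01, 4.64, 4.84, 4.65 and 5.53, so the wide SD and the high mean both come with Hlth_1798, the highest of all 30 mice. Vehicle against healthy gave a difference of 0.13 (interval -0.65 to 0.92, limma adjusted p = 0.99). Without Hlth_1798 that difference was 0.75. Cxcl11, the remaining ligand, averaged 5.11 ± 0.47 in aspirin and clopidogrel mice and between 4.83 and 4.90 in the other groups, with its highest value, 5.85, in AspClo_63. The receptor Cxcr3 itself stayed between 4.06 and 4.45, below the median gene in every mouse.

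**Figure D3:**
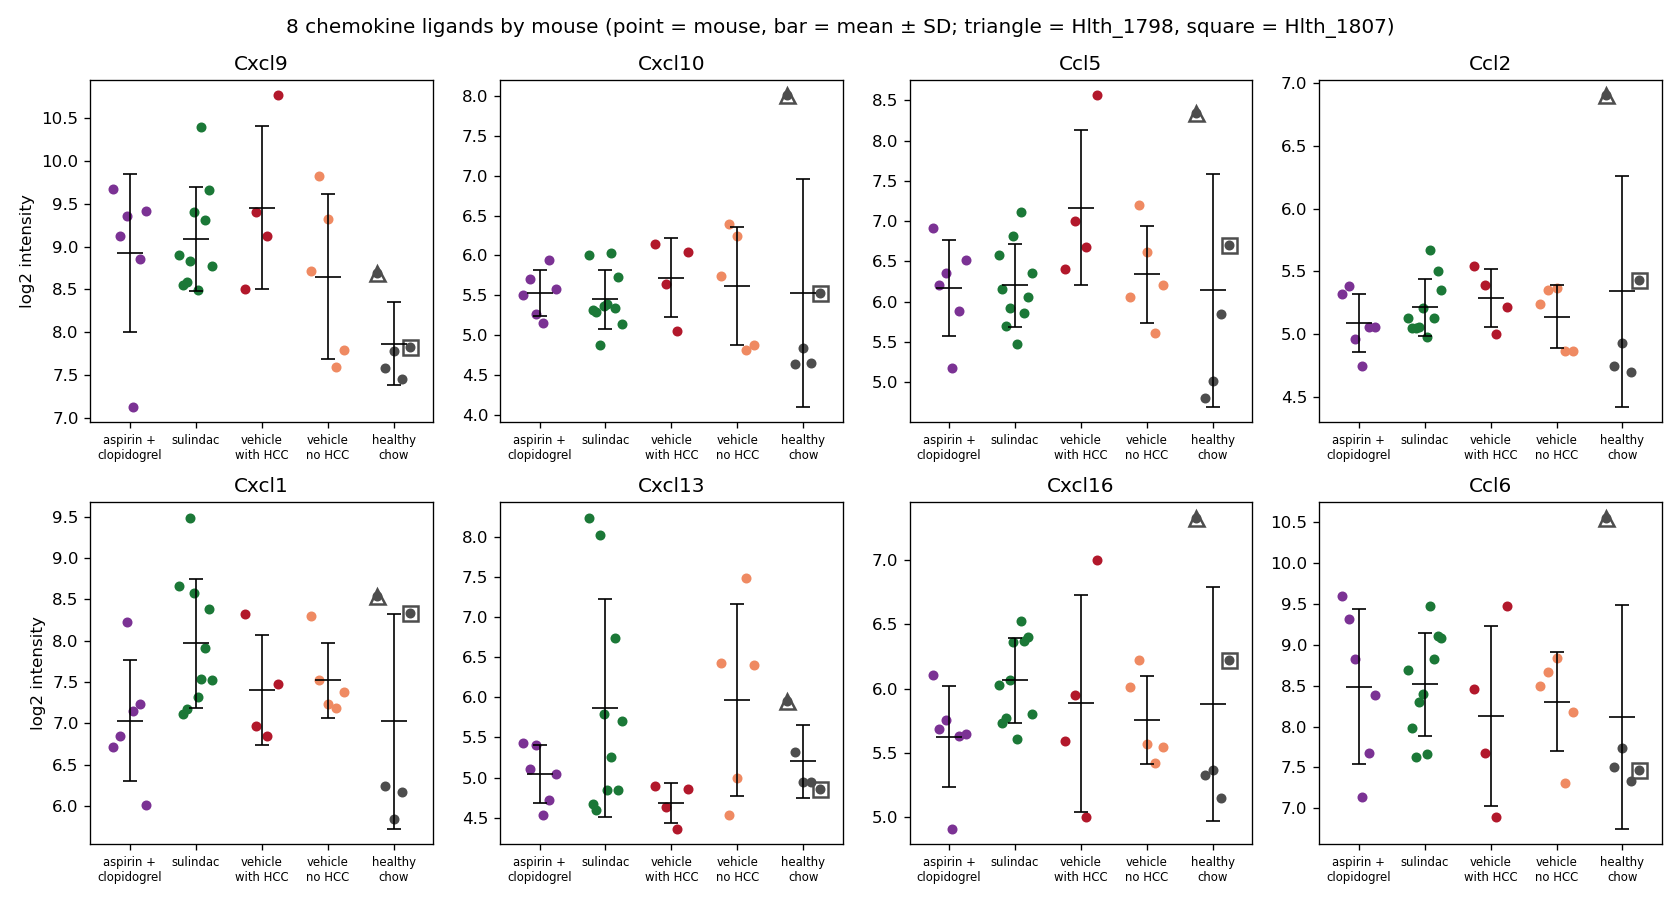
Log2 intensity of 8 ligands in each mouse (points), with mean ± SD (bars), for aspirin and clopidogrel, sulindac, vehicle with HCC, vehicle without HCC and healthy chow mice from left to right. The triangle marks Hlth_1798 and the square Hlth_1807; Cxcl10 in Hlth_1798 (8.01) lies above all other mice.

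Ccl5 (RANTES), which attracts T cells, monocytes and other leukocytes through Ccr1 and related receptors, had its highest group mean in vehicle mice with HCC. It read 6.41, 7.0, 6.68 and 8.56 in vehicle mice with HCC and 6.06, 7.20, 6.62, 5.61 and 6.21 in vehicle mice without HCC. The difference was 0.82 (SE 0.524, interval -0.25 to 1.90, limma adjusted p = 0.696), and 1 of 4 mice with HCC lay above all mice without it. It was 0.36 without that mouse, Veh_high_2088, and 0.54 in the 26 mice. Chow mice had 8.34, 4.80, 5.01, 5.84 and 6.70 and spanned nearly the whole range. Against chow, vehicle with HCC differed by 1.03 (interval -0.05 to 2.10, limma adjusted p = 0.568). That difference was 0.56 without Veh_high_2088 and 1.58 without Hlth_1798. Aspirin and clopidogrel mice averaged 6.17 ± 0.60 and sulindac mice 6.20 ± 0.51, against 6.71 ± 0.85 in vehicle mice, with differences of -0.53 (interval -1.38 to 0.31) and -0.51 (interval -1.24 to 0.23). Without Veh_high_2088 these were -0.30 and -0.27. Ccl3 and Ccl4, inflammatory ligands of the same axis, spanned 0.65 and 0.45 over all mice, both with their maximum in Hlth_1798 (5.35 and 4.93). Ccr1, a receptor of myeloid cells, stayed between 4.27 and 4.65.

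Veh_high_2088 held the highest value of 4 members: Ccl5 (8.56), Cxcl9 (10.77), Ccl8 (5.64) and Cxcr3 (4.45). The summed intensity of 6 NK cell markers was 191 in this mouse, and between 134 and 153 in the other 29. Gzmb (5.57), Nkg7 (5.51) and Prf1 (4.92) had their highest value of all mice there, whereas Gzma (4.83), Ncr1 (4.38) and Klrb1c (4.17) did not. Ncr1 and Klrb1c never reached the median gene. The summed T cell markers were 173 there, within the 155 to 174 of all mice, and 5 of the 7 T cell markers never reached the median gene. Their part in these values was not tested.

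The monocyte axis joins Ccl2, Ccl7 and Ccl12 to Ccr2, the receptor that draws monocytes from bone marrow to injured liver. Ccr2 read 5.41, 5.45, 5.32 and 5.06 in vehicle mice with HCC and 4.94, 5.11, 4.81, 4.91 and 4.72 in vehicle mice without HCC. Here 3 of 4 mice with HCC lay above all 5 without it, a difference of 0.41 (SE 0.176, interval 0.05 to 0.77, limma adjusted p = 0.465). This was the only member with an unadjusted p under 0.05 in that comparison. Ccr2 has 4 probe sets, whose group means with HCC and without it were 5.31 and 4.90 for the one used, 5.09 and 4.67, 4.74 and 4.59, and 4.61 and 4.66 for the others. The Kupffer cell marker sum ranged from 2953 to 7084 with HCC and from 4038 to 7565 without it, and the monocyte and macrophage sum from 1268 to 2414 and from 1697 to 2755. Their part in the Ccr2 values was not tested.

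Ccl2 (MCP-1) averaged 5.09 ± 0.23 in aspirin and clopidogrel mice, 5.21 ± 0.23 in sulindac mice, 5.29 ± 0.23 in vehicle mice with HCC, 5.14 ± 0.25 in vehicle mice without HCC and 5.34 ± 0.92 in chow mice. Chow mice had 6.90, 4.75, 4.93, 4.70 and 5.43, and the highest of these again was Hlth_1798. The difference of vehicle from healthy was -0.14 (interval -0.60 to 0.33, limma adjusted p = 0.968), and 0.25 without that mouse. Ccl7 stayed between 4.24 and 4.78 and Ccl12 between 4.08 and 4.42.

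In the neutrophil axis Cxcl1, Cxcl2 and Cxcl5 act on Cxcr2, and each of these ligands had its highest single value in a sulindac mouse. Cxcl1 (KC) ranged from 6.01 to 8.23 with a median of 7.0 in aspirin and clopidogrel mice and from 7.12 to 9.49 with a median of 7.72 in sulindac mice. Vehicle mice with HCC had 8.32, 6.97, 6.85 and 7.48, those without HCC 8.30, 7.52, 7.23, 7.19 and 7.38, and chow mice 8.54, 6.24, 5.84, 6.17 and 8.34. All groups overlapped, and the chow mice divided into 3 between 5.84 and 6.24 and a pair, Hlth_1798 and Hlth_1807, above 8. Cxcl1 in aspirin and clopidogrel mice (7.03 ± 0.73) differed by -0.94 from sulindac mice (7.97 ± 0.78; SE 0.408, interval -1.77 to -0.10, limma adjusted p = 0.373). Sulindac mice differed from chow mice (7.03 ± 1.30) by 0.94 (SE 0.433, interval 0.05 to 1.83, limma adjusted p = 0.30).

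Cxcl2 (MIP-2) was read near the lower end of the array and also had its highest group mean in sulindac mice. It lay between 4.49 and 4.64 in aspirin and clopidogrel mice and between 4.58 and 5.12 in sulindac mice, with means of 4.59 ± 0.05 and 4.79 ± 0.17. The difference was -0.20 (SE 0.066, interval -0.33 to -0.06, limma adjusted p = 0.179), and against vehicle (4.75 ± 0.09) it was -0.15 (interval -0.29 to -0.01, limma adjusted p = 0.281). Cxcl5 did not exceed 4.48 and Cxcr2 stayed between 4.46 and 4.85. The neutrophil marker sum ranged from 145 to 419 in aspirin and clopidogrel mice and from 131 to 250 in sulindac mice. In Hlth_1807 it was 1226, and Cxcl1 read 8.34 there. The part of neutrophils in the Cxcl1 and Cxcl2 values was not tested.

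Cxcl12 (SDF-1), a homeostatic ligand made by stromal and endothelial cells, ranged from 10.50 to 11.46 and had group means between 10.66 and 10.83. A second bright probe set was more spread, with means of 10.18 in aspirin and clopidogrel mice, 9.81 in sulindac mice and 10.02 in chow mice. It averaged 9.72 in vehicle mice with HCC and 10.09 in vehicle mice without HCC. The probe set used was highest in Hlth_1807, where the second read 10.22, inside its 9.43 to 10.29 over all mice. The atypical receptor Ackr3, which scavenges Cxcl12, read 5.63 in Hlth_1807 and 4.42 to 4.75 in the other 4 chow mice. Ackr2, which degrades inflammatory CC chemokines, stayed between 4.58 and 5.07, and Ackr4, which takes up homeostatic ones, between 4.28 and 4.69. Of the 29 genes in 8 axes and the scavenging group, 26 were measured and 3 were not analysed here.

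Cxcl13, which guides B cells through Cxcr5, had the widest range of any member, 3.88. It ranged from 4.59 to 8.24 with a median of 5.48 in sulindac mice, with 8.24 in Sulin_16, 8.03 in Sulin_23 and 6.74 in Sulin_17. Vehicle mice with HCC had 4.89, 4.63, 4.36 and 4.86, and vehicle mice without HCC had 6.43, 4.53, 5.00, 7.49 and 6.40. The mice with HCC were thus uniformly low, whereas those without HCC were split. Low values were not particular to mice with HCC. Aspirin and clopidogrel mice ranged from 4.53 to 5.43 with a median of 5.08, and chow mice from 4.86 to 5.95 with a median of 4.95. The difference of vehicle with HCC from vehicle without HCC was -1.28 (SE 0.627, interval -2.57 to 0.00, limma adjusted p = 0.565). Without Veh_low_794 and Veh_low_1819, which had 7.49 and 6.40, the difference in the 26 mice was -0.63 (limma adjusted p = 0.885). A second Cxcl13 probe set gave the same group order between these groups, 4.64 with HCC and 5.75 without it.

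High Cxcl13 did not come with a high sum of B and plasma cell markers in every mouse. The summed B and plasma cell markers were 671 in Veh_low_794, but 121 in Sulin_16 and 140 in Sulin_23. AspClo_62 and AspClo_63, with sums of 545 and 512, had Cxcl13 at 4.72 and 5.05. Jchain read 9.14 in Veh_low_794, 8.82 in AspClo_62 and 8.66 in AspClo_63, and Ms4a1 read 5.07, 4.74 and 5.11. Of the 5 measured markers, Cd79a, Cd79b and Ighm never reached the median gene, so these high sums follow Jchain rather than the whole list. The Kupffer cell marker sum did not follow Cxcl13 in every mouse either. It was 8543 in Sulin_23, where Cxcl13 read 8.03, but 5960 in Sulin_16, where Cxcl13 read 8.24. In Hlth_1798 the sum was 9505 and Cxcl13 read 5.95. With HCC against without it, 0 of the 6 Kupffer markers were higher, with a median difference of -0.566 and no call. Marco, a macrophage scavenger receptor on that list, read 4.94, 4.79, 4.87 and 5.45 in vehicle mice with HCC, against 6.69, 4.78, 6.04, 5.65 and 7.33 in those without it, and 7.21, 9.07 and 8.34 in Sulin_16, Sulin_23 and Sulin_17. Marco was also high in Sulin_26 (7.89), Sulin_29 (7.20) and AspClo_58 (7.70), where Cxcl13 read 5.70, 4.85 and 5.40. C6, on the same list, was lowest of the sulindac mice in Sulin_16 (9.36), the mouse with the highest Cxcl13. The part of B, plasma and Kupffer cells in the Cxcl13 values was not tested. Cxcr5, the receptor, stayed between 4.24 and 4.69 over all mice.

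Cxcl16, a membrane-bound ligand that holds Cxcr6-bearing T and NKT cells in liver sinusoids, averaged 5.62 ± 0.39 in aspirin and clopidogrel mice, 6.07 ± 0.33 in sulindac mice, 5.89 ± 0.84 in vehicle mice with HCC, 5.75 ± 0.34 in vehicle mice without HCC and 5.88 ± 0.91 in chow mice. Its difference between aspirin and clopidogrel and sulindac was -0.44 (interval -1.0 to 0.12, limma adjusted p = 0.613). The receptor Cxcr6 averaged 4.77 ± 0.12 in aspirin and clopidogrel mice and 4.63 ± 0.06 in sulindac mice, a difference of 0.14 (interval 0.02 to 0.26, limma adjusted p = 0.349), with 4 of 6 mice above all sulindac mice. A second Cxcr6 probe set averaged 4.52 in aspirin and clopidogrel mice and 4.53 in sulindac mice. Fractalkine, Cx3cl1, stayed between 4.52 and 4.97. Its receptor Cx3cr1, found on patrolling monocytes and liver macrophages, reached 5.54 in Hlth_1807 and no more than 5.04 elsewhere.

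Ccl27a, a chemokine best known from skin keratinocytes, had the smallest adjusted p of any member when aspirin and clopidogrel mice were set against vehicle and against chow. It ranged from 6.15 to 6.51 with a median of 6.33 in aspirin and clopidogrel mice, against 5.78 to 6.35 with a median of 5.98 in 9 vehicle mice, so that 3 of 6 lay above all vehicle mice. The difference was 0.34 from vehicle (SE 0.127, interval 0.08 to 0.60, limma adjusted p = 0.188) and 0.44 from chow (SE 0.146, interval 0.15 to 0.74, limma adjusted p = 0.104). In the 26 mice the difference was 0.39 from vehicle and 0.13 from chow (limma adjusted p = 0.0176 and 0.666). Hlth_1798 and Hlth_1807 read 5.31 and 5.49, and the other 3 chow mice averaged 6.19. A second bright probe set averaged 6.31 in aspirin and clopidogrel mice, 5.87 in vehicle mice with HCC and 5.97 in vehicle mice without HCC, and a pair of dim ones showed group means within 0.11 of each other. The mouse genome holds near-identical copies of Ccl27a and of Ccl21b, and their probe sets may read several copies.

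A pair of chow mice, Hlth_1798 and Hlth_1807, stood apart from the other 3. Hlth_1798 had the highest value of all 30 mice for 11 of 52 members (21.2%), against 6.07% of all genes: Ccl1, Ccl2, Ccl3, Ccl4, Ccl6, Ccl7, Ccl20, Cxcl10, Cxcl14, Cxcl16 and Cxcr5. Relative to the mean of Hlth_1804, Hlth_1965 and Hlth_1968 it was higher by 3.31 for Cxcl10, 3.12 for Ccl5, 3.02 for Ccl6 (a macrophage chemokine), 2.45 for Cxcl1, 2.10 for Ccl2, 2.04 for Cxcl16 and 1.09 for Cxcl9. These 7 members were at least 1 log2 unit higher, as were 2.78% of all genes.

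Hlth_1807 departed along other members. It was higher than the same 3 mice by 2.26 for Cxcl1, 1.48 for Ccl5, 1.31 for Ccl19 (a lymphoid tissue ligand), 1.11 for Ackr3, 1.06 for Ccr2 and 1.03 for Cx3cr1, 6 members in all, while 2.67% of all genes were as high. Ccl6 differed by -0.05 and Ccl9 by -0.81 in this mouse. Other probe sets of Ccr2 and Cx3cr1 did not all follow. The remaining Ccr2 probe sets read 6.29, 4.93 and 4.46 in Hlth_1807, and 5.57, 5.15 and 4.61 in Hlth_1798. The second Cx3cr1 probe set read 4.24 in Hlth_1807 and averaged 4.25 in chow mice. Hlth_1807 and Hlth_1798 shared 2 of these members, Cxcl1 and Ccl5. It held the highest value of 30 mice for 5 members (9.62%; 6.75% of all genes), 3 of them receptors.

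Sums of cell type markers differed in both mice, but the markers within a list did not all move alike. In Hlth_1798 the monocyte and macrophage marker sum was 4297, against 995 to 1258 in Hlth_1804, Hlth_1965 and Hlth_1968, and the Kupffer cell sum was 9505 against 4162 to 4843. In Hlth_1807 the neutrophil sum was 1226 against 118 to 125, the cholangiocyte sum 430 against 109 to 117, the stellate cell sum 2112 against 1016 to 1238, the monocyte and macrophage sum 2243, and the Kupffer cell sum 3770. Within the Kupffer list, Cd5l, Clec4f and Vsig4 were higher in Hlth_1798 than in Hlth_1804, Hlth_1965 and Hlth_1968. Marco (4.59), Timd4 (4.40) and C6 (10.09) were lower there than in each of those mice. In Hlth_1807, C6 was higher (11.36), whereas Clec4f (6.36), Vsig4 (7.11), Cd5l, Marco and Timd4 were lower. In the stellate list, Reln (10.80) was higher in Hlth_1807 and Lrat (7.23) lower. The part of these cells in the chemokine values was not tested.

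**Figure D4:**
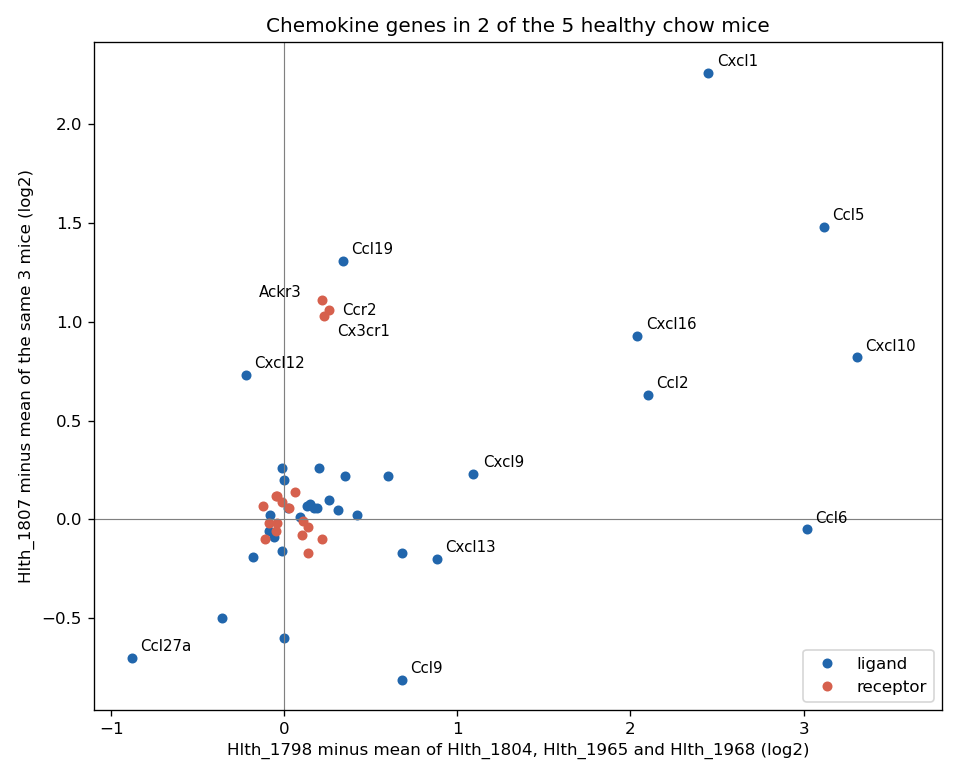
Difference of Hlth_1798 (horizontal axis) and of Hlth_1807 (vertical axis) from the mean of the other 3 chow mice, in log2 units, for 34 ligands (blue) and 18 receptors (red). On the probe sets used, Cxcl1 and Ccl5 are high on both axes. Cxcl10 (3.31) and Ccl6 (3.02) are high mainly in Hlth_1798, and Ackr3, Ccr2, Cx3cr1 and Ccl19 mainly in Hlth_1807.

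Without Veh_low_794, Veh_low_1819, Hlth_1798 and Hlth_1807 several differences from chow were larger. These mice were picked on measured values because they lay nearer the opposite group, so leaving them out widens the diet difference by construction, and the resulting p-values are not independent evidence. In the remaining 26 mice, Cxcl9 differed from chow by 1.85 for vehicle with HCC and 1.49 for sulindac, Ccl5 by 1.95 for vehicle with HCC, and Cxcl10 by 1.19 for all vehicle mice. Cxcl1 differed by 1.88 for sulindac. Ccl25, a ligand best known for drawing lymphocytes to thymus and gut, differed in the opposite direction, by -0.41 for vehicle with HCC (4.69 ± 0.11, n = 4) from the 3 chow mice left (5.10 ± 0.12). With all 30 mice that Ccl25 difference was -0.24. Members with a limma adjusted p under 0.05 numbered 2 for aspirin and clopidogrel against chow, 4 for sulindac, 5 for vehicle with HCC, 1 for vehicle without HCC and 5 for all vehicle mice, where 5.43%, 7.76%, 5.01%, 2.95% and 5.61% of all genes were called. Among drug comparisons, 1 member was called for aspirin and clopidogrel against vehicle (Ccl27a; 4.79% of all genes). None was called by limma for sulindac against vehicle (0.836% of all genes), aspirin and clopidogrel against sulindac (2.01%) or vehicle with HCC against vehicle without HCC (0.0819%), and 2, 6 and 1 members had an unadjusted p under 0.05 there, where 12.5%, 13.2% and 8.39% of all genes had one.

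**Figure D5:**
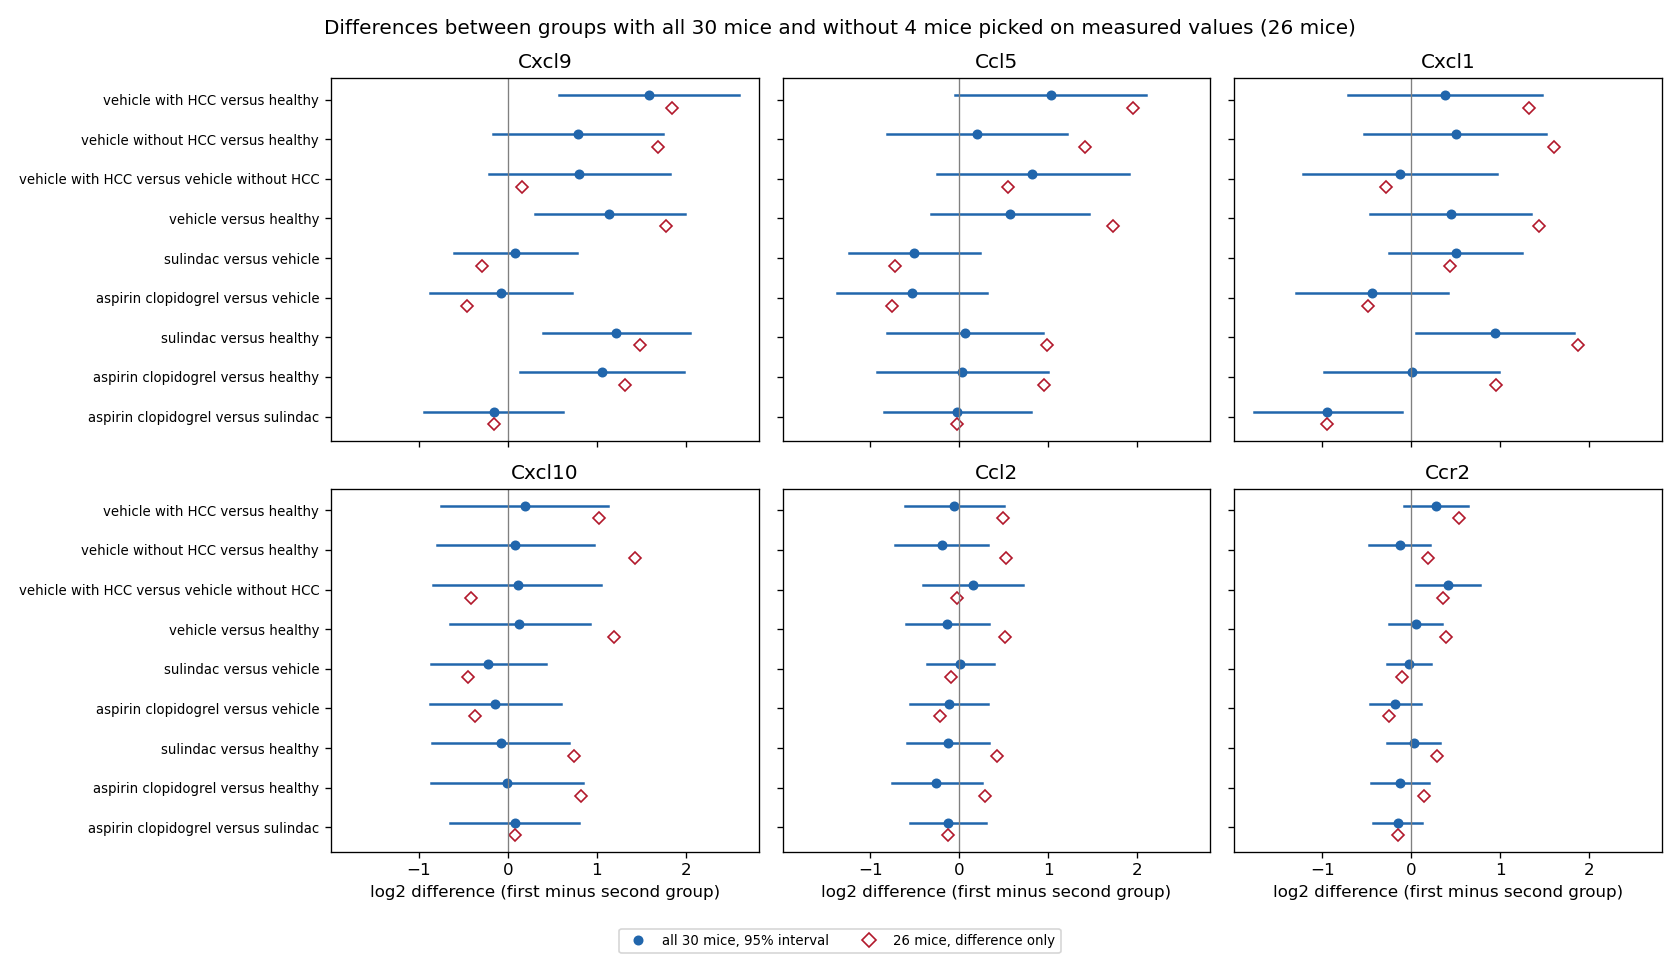
Log2 difference between groups (first minus second) for 6 chemokine genes in 9 comparisons, with all 30 mice and 95% intervals (blue) and without the 4 mice picked on measured values (open red diamonds). In each comparison with chow the diamond lies to the right of the blue point for all 6 genes, as for Cxcl10 in all vehicle mice (1.19 with 26 mice and 0.13 with 30).

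Some members varied together over the 30 mice. Of 5 pairs of axis members examined, chosen after their levels were seen, Ccl3 and Ccl5 had Pearson r = 0.71 and Spearman rho = 0.58 (permutation p adjusted over the 5 pairs 0.0002 and 0.00242), and r was 0.66 without the 2 mice farthest from the median of Ccl3. Cxcl9 and Cxcl10 had r = 0.46 and rho = 0.58 (permutation p adjusted 0.0257 and 0.00242), with r = 0.44 without the 2 farthest mice and 0.67 without Hlth_1798. For deviations from group means r was 0.70 and 0.55. Ccl2 and Ccr2 had r = 0.35 and rho = 0.47 (permutation p adjusted 0.112 and 0.0157), with r = 0.50 without the 2 farthest mice and 0.58 without Hlth_1798 alone. Cxcl11 had r = 0.31 with Cxcl9 (permutation p adjusted 0.116) and r = 0.07 with Cxcl10 (permutation p adjusted 0.687). The mice share the diet and group structure, so the pooled values mix differences between and within groups.

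Genes that signal from chemokine receptors or induce chemokines, such as G protein subunits, Irf1, NF-kappa B subunits and integrins, gave a similar picture. Of 41 listed, 36 were measured and 0 were called in any comparison by limma. Between 0 and 3 of the 36 had an unadjusted p under 0.05 in each comparison, where 5.32% to 14.8% of all genes had one. For the calls that follow, the share of all genes called against chow was 2.77% for aspirin and clopidogrel and 2.98% for sulindac. It was 1.96% for aspirin and clopidogrel against vehicle. Among 8 chemokine-like genes outside the symbol rule, Mif, a cytokine that binds chemokine receptors, was called. Mif averaged 11.37 ± 0.13 in aspirin and clopidogrel mice (n = 6), against 11.62 ± 0.07 in chow mice (n = 5), and fell by 0.25 (SE 0.061, limma adjusted p = 0.0216). In sulindac mice it averaged 11.37 ± 0.10 (n = 10) and fell by 0.24 relative to the same chow mice (SE 0.055, limma adjusted p = 0.0129). Among cell type markers, C6, listed for Kupffer cells, fell by 1.68 in aspirin and clopidogrel mice relative to vehicle mice (8.69 ± 0.92, against 10.37 ± 0.59; limma adjusted p = 0.00824), while the other 5 Kupffer markers were all higher in that comparison, with a median over the 6 markers of 0.603, and were not called in any comparison. Of the sinusoidal endothelial markers, Oit3 rose by 0.68 in aspirin and clopidogrel mice and by 0.62 in sulindac mice relative to chow mice, and Pecam1 by 0.56 in sulindac mice (limma adjusted p between 0.016 and 0.0318). The hepatocyte marker Cyp3a11 fell by 0.18 in sulindac mice relative to chow mice (limma adjusted p = 0.0383), while 4 of the 6 hepatocyte markers were higher there and the median over the list was 0.011.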

How the data were processed

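Total RNA from 20 mg of frozen liver was extracted with Trizol and RNeasy columns, per the labels' protocols. The deposited values are linear intensity per probe set, which the authors made with RMA and quantile normalization, per the submitters' processing notes and the design text. Its version is not given. The number of arrays limits the precision.

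Here log2 of each deposited intensity was taken. Of 45141 probe sets, 28898 had 1 symbol, 551 had several, and 28689 matched RefSeq (GRCm38.p6). limma 3.58.1 in R 4.3.3 fitted 5 group means to 30 arrays (25 residual and 2.37 prior degrees of freedom). Each of 9 comparisons was adjusted over 17097 genes by the Benjamini-Hochberg method, with a threshold of 0.05. The vehicle mean weighted its 9 mice equally. The fit was tested on simulated data with 200 changed genes, none dimmer than the median gene. Correlations used 100000 resamples (scipy 1.17.1).

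Named members are any with a call, the 6 with the widest spread of group means and the genes of 8 ligand and receptor axes. Ccl6, Ccl8, Ccl9, Ccl19 and Ccl25 and members in lists of extremes were chosen after their values were seen. Members and lists were chosen with earlier results of these data known. Where the labels give 9 vehicle mice and the design text 4, the labels were followed. The p-values weigh each difference against the spread between mice of a group and treat the mice as independent. The labels do not say that mice were independent litters, and with shared litters the p-values could be too small. Alternatives were the samples fitted, a filter on low values, the mean over probe sets, an intensity trend, array weights, median centring, leaving out each mouse, and leaving out 4 mice together.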

Additional observations from a re-analysis of the deposited data

Results flagged for a closer look

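A gap test on the 27 named members examined 135 groups of 4 to 10 mice, and chance alone singles out about 1 in 20. It singled out 6 values, about the number that chance alone would give. Among aspirin and clopidogrel mice, AspClo_60 was low for Cxcl9 (7.13, the other 5 between 8.86 and 9.67) and for Cxcl2 (4.49, the others between 4.60 and 4.64). Its monocyte and macrophage marker sum was 1153, against 1689 to 2603 in the other 5, whose part was not tested. Among vehicle mice with HCC, Veh_high_1770 was low for Cxcr2 (4.51, the others between 4.64 and 4.66). Among chow mice, Hlth_1798 was high for Cxcl10 (8.01, the others between 4.64 and 5.53) and for Ackr4 (4.52, the others between 4.34 and 4.38), and Hlth_1807 for Ackr3 (5.63, the others between 4.42 and 4.75). The Ackr4, Cxcr2 and Cxcl2 departures are small and lie near the lower end of the array.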

How the results depend on the processing

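The count of chemokine members past the threshold was 0 in every comparison with all 30 mice, and stayed 0 in each of the 30 fits that left out 1 mouse (smallest limma adjusted p = 0.0513), with median centring, an intensity trend, the mean over probe sets and the filter on low values. Array weights gave 2 members for vehicle with HCC against healthy, 1 for vehicle against healthy, 2 for sulindac against healthy and 1 for aspirin and clopidogrel against healthy, where 3.91%, 2.19%, 9.44% and 7.14% of all genes were called. Fitting only the groups compared gave 1 for sulindac against healthy (Cxcl9; 3.35% of all genes). Leaving out the 4 mice picked on measured values gave 5, 1, 5, 1, 4 and 2 members for vehicle with HCC, vehicle without HCC and all vehicle against healthy, aspirin and clopidogrel against vehicle, sulindac against healthy, and aspirin and clopidogrel against healthy. The shares of all genes called there were 5.01%, 2.95%, 5.61%, 4.79%, 7.76% and 5.43%, in the same order.

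Alternatives were counted for 41 differences, a selected part of the 468 pairs, so the counts do not describe the other pairs. Of 807 alternative values for these 41, 764 kept their direction with no call, 22 gained a call and 21 changed sign. Within the 41, the sign changes were all in Ccl2 and Cxcl10 against chow. Pairs outside the 41 changed sign too. For aspirin and clopidogrel against chow, leaving out 1 mouse moved Ccl5 (0.03) from -0.30 to 0.58. It moved Cxcl1 (0.01) from -0.29 to 0.38, and Cxcl16 (-0.25) from -0.44 to 0.11. Ccl2 in vehicle was -0.14, then 0.25 with array weights and 0.51 without the 4 mice, and from -0.30 to 0.25 leaving out 1 mouse. Cxcl10 was -0.01 for aspirin and clopidogrel, then 0.51 with array weights, 0.82 without the 4 mice and from -0.23 to 0.61 leaving out 1 mouse. For sulindac it was -0.08, then 0.41, 0.74 and from -0.31 to 0.54 in the same order. Leaving out 1 mouse, Cxcl10 ran from -0.09 to 0.75 for vehicle, from -0.03 to 0.81 for vehicle with HCC and from -0.14 to 0.71 for vehicle without HCC. Each of the highest values is without Hlth_1798. No paired analysis was possible because animal numbers are not shared between groups. Signal near background limits what can be seen in the 24 members that never exceeded the median gene.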
